A study of Mus musculus with 8 samples.

Results

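The m6A readers examined here are proteins that recognise N6-methyladenosine (m6A) in RNA, and described here are the m6A peaks on the readers' own mRNAs. The set held 8 genes, the YTH family (Ythdf1, Ythdf2, Ythdf3, Ythdc1 and Ythdc2) and the Igf2bp family (Igf2bp1, Igf2bp2 and Igf2bp3), out of 21821 protein-coding genes. A peak counted as a reader's if its exon blocks shared 1 base or more with an annotated exon of the gene, strand included (GENCODE M21 annotation, mm10). This gave 29 of the 18895 peaks of the DMSO list and 23 of the 13001 peaks of the Dox list. Peaks came from MeRIP-seq, in which fragmented poly(A) RNA is pulled down with an antibody against m6A (IP) and sequenced beside the unselected RNA (input). The cells were E14, a line of mouse embryonic stem cells (ESCs), which per the study carry a doxycycline (Dox)-inducible transgene of Dux, a transcription factor of the 2-cell embryo, and a tdTomato transgene driven by the MERVL promoter, in both groups alike. Cells received DMSO, the solvent control, or Dox for 24 h, with 2 IP and 2 input libraries per treatment, 8 libraries in all. Each treatment was represented by 1 peak list, so the values have no replicate error, no test between treatments was possible, and the methods describe no sorting of cells before RNA extraction.

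YTH-domain proteins hold the methylated adenosine in a pocket of the YTH domain. The Ythdf proteins are cytoplasmic and are best known for promoting decay of methylated mRNAs, Ythdc1 is nuclear and acts in splicing, export and chromatin-associated RNA, and Ythdc2 is an RNA helicase required in germ cells. The Igf2bp proteins bind RNA through RRM and KH domains and are known for stabilising their target mRNAs. In mRNA, m6A is placed mainly in long internal exons and around the stop codon, within the motif DRACH (where D stands for A, G or U, R for A or G, and H for A, C or U), of which GGAC is the core of the most favoured form.

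All 7 genes with a peak in one list also had one in the other, and Ythdc2 had a peak in neither. The share of all genes with peaks in both lists is not given here, so this agreement has no background value. A share of 27.7% of all protein-coding genes carried a DMSO peak and 22.3% a Dox peak. Among the 10979 genes whose total exon length lay within the range of the readers (3316 to 13651 nt), the shares were 37.1% and 29.7%. As a check of the labelled cell type, 5 of 5 pluripotency genes had a peak in each list (Pou5f1, Sox2, Nanog, Zfp42 and Esrrb). Of 5 genes of the 2-cell stage (Zscan4c, Zscan4d, Duxf3, Zfp352 and Tcstv3), 2 had a DMSO peak and 5 had a Dox peak. Similar copies of these genes elsewhere in the genome were not looked for. Peaks from RNA of the Dux transgene were not told apart from those of Duxf3. Transcript levels and read depth were not analysed here. A list gives no value for a gene with no peak, and fewer bases under peaks cannot be told apart from less RNA or fewer reads.

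The aligned sequences given first were chosen after the values were seen, at sites where the peaks of the paralogs differ. They are in the direction of the mRNA, with each GGAC in capitals. The first set is the stretch of the long coding exon that is aligned between the 3 Ythdf proteins (chr2:180910927-180911022 on the minus strand, chr4:132204372-132204467 on the minus strand and chr3:16205089-16205184 on the plus strand, mm10), encoding codons 467 to 498 of Ythdf1, 461 to 492 of Ythdf2 and 478 to 509 of Ythdf3.
Ythdf1: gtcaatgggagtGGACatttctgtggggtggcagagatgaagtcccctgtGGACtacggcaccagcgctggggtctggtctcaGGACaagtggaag
Ythdf2: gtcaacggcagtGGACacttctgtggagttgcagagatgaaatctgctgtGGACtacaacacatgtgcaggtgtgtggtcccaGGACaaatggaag
Ythdf3: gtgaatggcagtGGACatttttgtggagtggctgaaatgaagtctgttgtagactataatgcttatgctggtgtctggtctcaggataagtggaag
Ythdf1 and Ythdf2 each held 3 GGAC in these 96 bases, at matching codons, and Ythdf3 held 1. In Ythdf1 and Ythdf2 all 96 bases lay under peaks in both lists. In Ythdf3, 25 of the 96 bases lay under a DMSO peak and none under a Dox peak, and its single GGAC was outside the peaks of both lists.

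The second set is the stretch of the Igf2bp coding sequence under the only coding peak of Igf2bp3 that did not reach the stop codon, with the aligned codons of its paralogs. It spans codons 297 to 322 of Igf2bp1 and Igf2bp3 and codons 288 to 313 of Igf2bp2, and it crosses 1 exon junction in each gene (chr11:95969960-95970721, chr16:22078727-22079536 and chr6:49105681-49107394, all on the minus strand).
Igf2bp1: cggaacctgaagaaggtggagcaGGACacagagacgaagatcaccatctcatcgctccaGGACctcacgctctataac
Igf2bp2: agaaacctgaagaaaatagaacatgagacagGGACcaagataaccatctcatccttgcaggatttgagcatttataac
Igf2bp3: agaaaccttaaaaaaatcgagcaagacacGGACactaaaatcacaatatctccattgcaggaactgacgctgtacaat
Each paralog held GGAC in these 78 bases, 2 in Igf2bp1 and 1 in each of the others, but at different codons. All 78 bases lay under peaks in both lists in Igf2bp1. In Igf2bp3, 75 bases lay under a DMSO peak and none under a Dox peak, and in Igf2bp2 none lay under a peak of either list.

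The Ythdf genes are built alike, with 1 long internal exon that holds most of the coding sequence, and their peaks covered most of that exon. All 3 of the peaks of 600 nt or more that the DMSO list held in the readers were in these exons, 1 in each gene, and the same was true of the 3 such peaks of the Dox list. That length was reached by 4.83% of all DMSO peaks and 4.42% of all Dox peaks. The Ythdf genes together had 9 peaks in each list, which covered 4475 exon bases (DMSO) and 3700 exon bases (Dox).

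**Figure D1:**
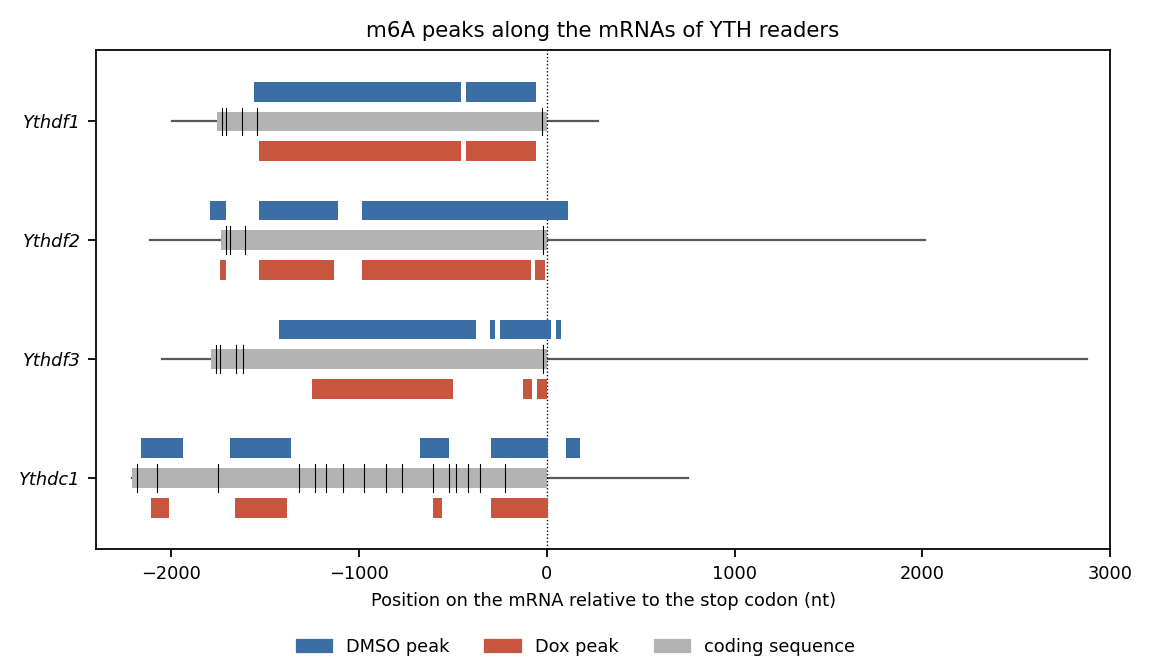
Peaks along the mRNAs of Ythdf1, Ythdf2, Ythdf3 and Ythdc1, in nt from the stop codon (dotted line), on the transcript with the longest coding sequence. DMSO peaks (blue) are drawn above and Dox peaks (red) below the coding sequence (grey box), thin lines are untranslated regions, vertical ticks are exon junctions, and peaks that meet at a junction are drawn joined. The long exon of the Ythdf genes lay mostly under peaks, whereas the Ythdc1 peaks were spread over several exons.

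Ythdf1 (ENSMUSG00000038848, chr2:180904377-180920949, minus strand) showed the least difference between the lists. It had 2 peaks in each list. The peak nearer to the stop codon, chr2:180910720-180911094, had the same 375 nt in both, with a score of 14.05 for the DMSO peak and 13.03 for the Dox peak. The score is the authors' value for a peak, read as −log10 of its p-value, and it is given with its percentile, the share of peaks of the same list that scored lower. These percentiles were 84.9 and 79.9. The other peak covered 1100 nt in the DMSO list (score 12.4) and 1075 nt in the Dox list (score 11.6), the DMSO peak being 25 nt longer at its 5′ end, where it reached into the preceding exon. Both lists left the same gap of 25 nt between the peaks, at codons 434 to 442. Of the 13 GGAC in the Ythdf1 mRNA, 10 lay under peaks in each list, and they were the same 10. The best-scoring peak is shown by the 300 coding bases with most GGAC (chr2:180910795-180911094).
Ythdf1, codons 443 to 542: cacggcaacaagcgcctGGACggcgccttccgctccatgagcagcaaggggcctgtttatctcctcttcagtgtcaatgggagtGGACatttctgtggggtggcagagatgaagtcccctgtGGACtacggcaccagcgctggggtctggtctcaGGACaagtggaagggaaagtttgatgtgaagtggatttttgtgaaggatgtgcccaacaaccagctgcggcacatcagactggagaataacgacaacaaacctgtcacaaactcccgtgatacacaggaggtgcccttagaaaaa

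Ythdf2 (ENSMUSG00000040025, chr4:132184912-132212303, minus strand), the reader most closely tied to mRNA decay, had 3 DMSO peaks and 4 Dox peaks. Over the 3′ part of its long exon the DMSO list held 1 peak of 1100 nt that crossed into the last exon and over the stop codon, with a score of 12.1 (percentile 62.5). In the Dox list this site was divided. A peak of 900 nt had a score of 17.3 (percentile 95.6), the highest of all Dox peaks in the readers, and a peak of 50 nt with a score of 10.8 followed after a gap of 25 nt and ended before the stop codon. The 5′ part of the exon carried 425 nt (score 13.9) in the DMSO list and 400 nt (score 12.2) in the Dox list. A smaller peak at the start codon measured 100 nt (score 11.3) and 50 nt (score 10.5), of which 82 nt and 32 nt were in the mature transcript and the rest in the following intron, annotated as exonic in a retained-intron transcript. Of 19 GGAC in the mRNA, 13 lay under DMSO peaks and 11 under Dox peaks. Of the peak sequences of all readers, the 50-nt Dox peak by the stop codon was the only one with a near-identical copy elsewhere in the genome. The part of the 900-nt peak with most GGAC is shown (chr4:132204336-132204635).
Ythdf2, codons 405 to 504: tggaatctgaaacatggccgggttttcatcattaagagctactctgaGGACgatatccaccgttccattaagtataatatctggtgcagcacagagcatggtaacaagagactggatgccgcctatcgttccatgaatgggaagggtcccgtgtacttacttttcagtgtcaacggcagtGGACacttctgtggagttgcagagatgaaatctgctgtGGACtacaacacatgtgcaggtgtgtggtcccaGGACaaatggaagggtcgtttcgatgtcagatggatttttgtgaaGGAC

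Ythdf3 (ENSMUSG00000047213, chr3:16183212-16217037, plus strand) had 4 DMSO peaks and 3 Dox peaks, and its coverage differed most between the lists among the Ythdf genes. The long peak measured 1050 nt (score 12.1) in the DMSO list and 750 nt (score 11.7) in the Dox list, being shorter at both ends. Around the end of the coding sequence, a DMSO peak of 275 nt (score 12.7) ran over the stop codon. The Dox list held 2 peaks of 50 nt there, with scores of 10.9 and 12.7, and neither reached the stop codon. The remaining DMSO peaks, 25 nt in the coding sequence and 25 nt in the 3′UTR, were not overlapped by a Dox peak and scored 10.2 (percentile 3.78) and 10.1 (percentile 1.64), at the lower end of that list. Of the 13 GGAC, 6 lay under DMSO peaks and 4 under Dox peaks.

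Of the coding bases of the long exon, 96.2% (Ythdf1, 1521 nt), 87.7% (Ythdf2, 1584 nt) and 81.6% (Ythdf3, 1599 nt) lay under DMSO peaks. For Dox peaks the shares were 95.3%, 84.5% and 51.9%. The annotation held 3076 exons with 1000 or more coding bases, of which 1045 had a peak in either list. In those 1045 exons the median share under peaks was 40.5% (DMSO) and 23.3% (Dox), and 117 exons reached 80% in both. Ythdf1 and Ythdf2 were among these 117, and Ythdf3 was not. In the DMSO list the Ythdf exons stood at percentiles 95.4 (Ythdf1), 87.5 (Ythdf2) and 82.4 (Ythdf3) of these exons. In the Dox list they stood at percentiles 96.8, 90.9 and 70.7. This comparison was chosen after the peaks of the Ythdf genes had been seen, and it describes them without a test.

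**Figure D2:**
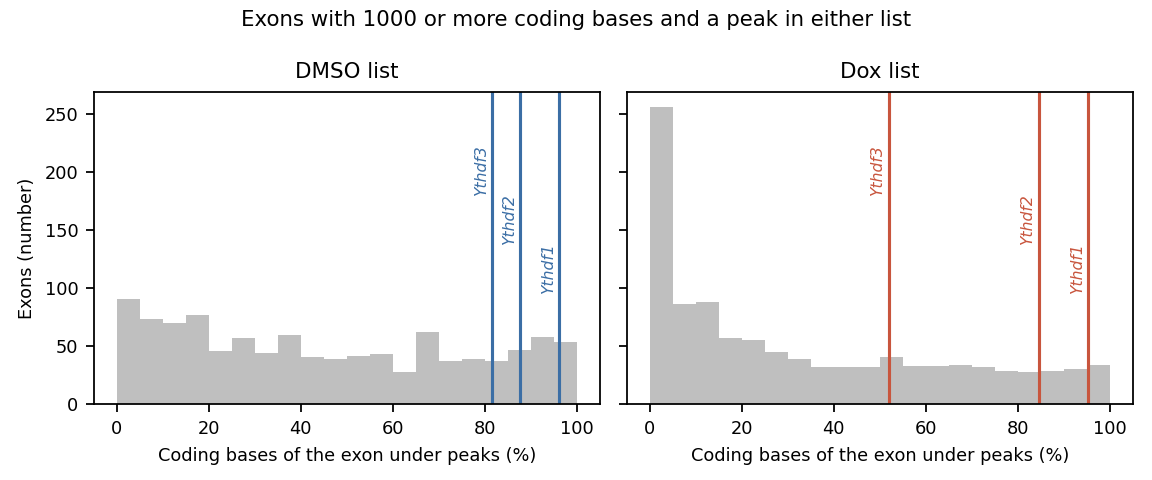
Share of the coding bases that lay under peaks (x axis, %) in the 1045 exons with at least 1000 coding bases and a peak in either list (grey bars, number of exons), for the DMSO list (left) and the Dox list (right). Coloured lines mark the long exons of the Ythdf genes, with Ythdf3 at 81.6% (DMSO) and 51.9% (Dox).

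The proteins encoded by the Ythdf genes were 70.1% to 72.3% identical over aligned residues, so that peaks could be set against each other codon by codon. Of the aligned codons under Ythdf3 DMSO peaks, 93.8% were also under a peak in Ythdf1 and 90.7% in Ythdf2, where 88.0% and 82.6% of all codons aligned with Ythdf3 were under peaks. In the Dox list the shares were 93.5% in Ythdf1, against 86.6% of all aligned codons, and 79.7% in Ythdf2, against 79.2%. The stretches between neighbouring peaks differed between the genes. The only such gap of Ythdf1 was at codons 434 to 442 in both lists. Ythdf2 had a gap of 175 nt at codons 10 to 68 in both lists and lacked a peak over 125 nt at codons 210 to 251 in the DMSO list and 150 nt at codons 201 to 251 in the Dox list. Ythdf3 lacked one over 75 nt at codons 471 to 496 in the DMSO list and over 375 nt at codons 430 to 554 in the Dox list. The other gaps, 1 in the Ythdf2 Dox peaks and 1 in Ythdf3 in each list, were 25 nt long. Within the coding sequences, 2 GGAC were found at the same codon in all 3 genes, at codons 117 and 471 of Ythdf1, 90 and 465 of Ythdf2, and 102 and 482 of Ythdf3. Both lay under peaks of both lists in Ythdf1 and in Ythdf2. Neither lay under a peak of either list in Ythdf3. By contrast, the GGAC that Ythdf3 shared with Ythdf2 alone, at codons 154, 180 and 544 of Ythdf3, lay under DMSO peaks in both genes. In the Dox list all of them lay under peaks in Ythdf2, but only the one at codon 180 did in Ythdf3. As m6A peaks are broader than a single site, a GGAC under a peak is not thereby shown to be methylated.

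Ythdc1 (ENSMUSG00000035851, chr5:86804221-86836659, plus strand), the nuclear YTH reader, had 7 DMSO peaks and 5 Dox peaks, and each of the 5 lay within a DMSO peak. The number of DMSO peaks was above that of 90.2% of the 6055 genes with a DMSO peak, for which the median was 2. These genes were not matched for length, and the total exon length of Ythdc1 (13651 nt) was the largest of the readers. Counting only the bases in the transcript with the longest coding sequence, its DMSO peaks in exons 11 and 12 met at the exon junction. The best-scoring DMSO peak, chr5:86833569-86835909, covered the end of the coding sequence and the stop codon, with 300 nt and a score of 18.4 (percentile 95.5). The Dox peak had the same 300 nt and a score of 12.4 (percentile 72.0). At the 5′ end, chr5:86804323-86804472 carried 150 nt in both lists, with scores of 15.8 and 14.8. It lay in the 5′UTR of 2 coding transcripts, with its middle 167 nt upstream of the start codon, but outside the transcript with the longest coding sequence. In exon 4 the DMSO peak of 325 nt had a score of 11.6 (percentile 50.1), and the Dox peak of 275 nt had a score of 13.8 (percentile 86.0). The remaining shared peaks fell from 225 to 100 nt at exons 2 and 3 and from 100 to 50 nt at exon 12, with scores between 10.9 and 11.1 in both lists. At exon 12, 83 of the 100 nt and 45 of the 50 nt lay in the transcript with the longest coding sequence. Only a retained-intron transcript held the whole of either peak.

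A pair of Ythdc1 peaks was found in the DMSO list alone. In exon 11 a peak of 75 nt at chr5:86828049-86828123 had a score of 17.0 (percentile 93.7), the second highest of the gene. In the 3′UTR a peak of 75 nt had a score of 11.4. Of the 9 GGAC in the Ythdc1 mRNA, 4 lay under DMSO peaks and 3 under Dox peaks, the fourth being in the exon 11 peak. The peaks in exons 2 to 4 also overlapped the readthrough transcript Gm43055 on the same strand, so their reads cannot be assigned to Ythdc1 alone. The coding part of the best-scoring peak is shown (chr5:86833569-86835908, 2 exons), with 2 GGAC.
Ythdc1, codons 638 to 736 and the stop codon: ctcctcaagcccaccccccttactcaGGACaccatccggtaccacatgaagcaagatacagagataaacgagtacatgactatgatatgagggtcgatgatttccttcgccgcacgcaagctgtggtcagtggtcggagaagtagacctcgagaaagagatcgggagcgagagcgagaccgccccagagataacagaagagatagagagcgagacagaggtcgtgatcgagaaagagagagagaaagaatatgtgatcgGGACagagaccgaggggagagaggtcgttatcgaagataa

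Ythdc2 (ENSMUSG00000034653, plus strand), the helicase, had no peak in either list. In the readers' range of exon length, 37.1% of genes carried a DMSO peak and 29.7% a Dox peak, so most had none. The Ythdc2 transcript of 7215 nt was longer than that of any other reader except Igf2bp1 (8378 nt). Its mRNA held 13 GGAC, or 1.802 per 1000 nt, the lowest density of the 8 readers, whose other values ran from 2.64 (Ythdf3) to 5.72 (Ythdf1) per 1000 nt. None of its exons held more than 293 coding bases. Whether Ythdc2 was transcribed in these cells was not analysed here, and a link of its missing peaks to GGAC density or exon length was not tested.

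The Igf2bp genes had no long coding exon, and no coding part of an exon exceeded 282 nt. They held 13 DMSO peaks and 9 Dox peaks over 2325 and 1600 exon bases. Igf2bp1 accounted for 9 of the 13 DMSO peaks and 5 of the 9 Dox peaks. Each of the 3 genes had a peak with its middle within 200 nt of the stop codon in both lists. Those of Igf2bp1 and Igf2bp3 ran over the stop codon. The one of Igf2bp2 lay in the 3′UTR.

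**Figure D3:**
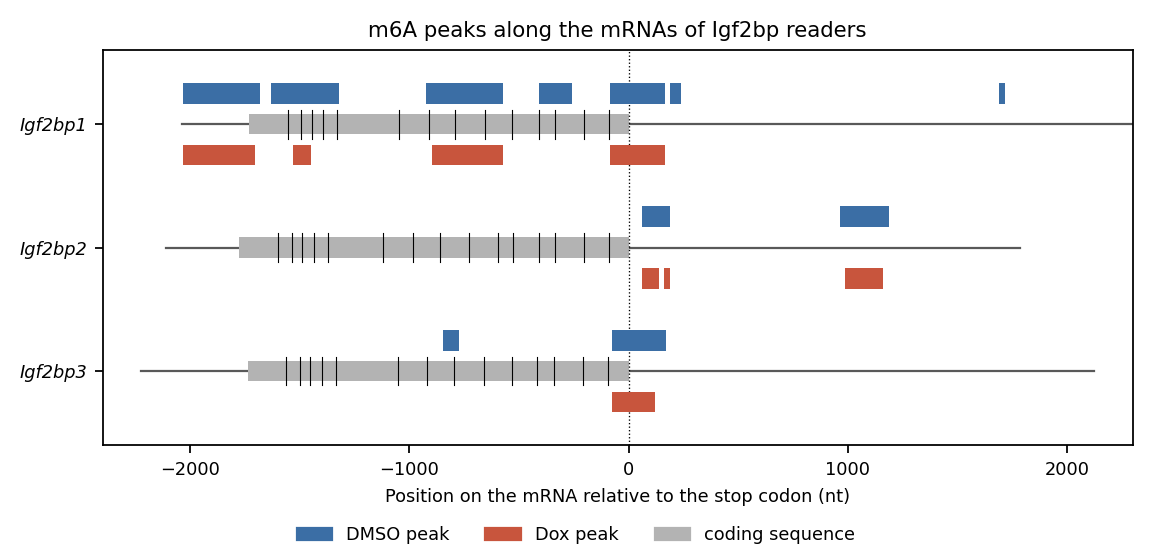
Peaks along the mRNAs of Igf2bp1, Igf2bp2 and Igf2bp3, in nt from the stop codon (dotted line), drawn as in the map of the YTH readers, with DMSO peaks in blue above and Dox peaks in red below the coding sequence (grey box). The axis leaves out the last part of the Igf2bp1 3′UTR, which had no peak. The 9 DMSO peaks of Igf2bp1 reached from the 5′UTR to the 3′UTR, whereas both peaks of Igf2bp2 in that list were in the 3′UTR.

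Igf2bp1 (ENSMUSG00000013415, chr11:95957163-96005940, minus strand) had 1650 exon bases under DMSO peaks and 1125 under Dox peaks. Its number of DMSO peaks was above that of 95.3% of genes with a DMSO peak. These genes were not matched for length, and the total exon length of Igf2bp1 was 9682 nt. Counting only the bases in the coding transcript, its DMSO peaks around exons 1 and 2, 3 and 4, and 5 and 6 met end to end. The best-scoring DMSO peak of all readers was here. It covered 350 nt of exons 7 to 10 (chr11:95968841-95973054), with a score of 26.1 (percentile 98.6), while the Dox peak covered 325 nt of exons 8 to 10 with a score of 12.3 (percentile 69.5). At the stop codon the peak chr11:95963338-95963587 had the same 250 nt in both lists, with scores of 13.04 (DMSO) and 14.3 (Dox), and 88 of the 250 nt were coding or stop codon. At the 5′ end, a peak of 350 nt (score 12.6) in the DMSO list and of 325 nt (score 13.1) in the Dox list lay mainly in the 5′UTR and covered the start codon. The other pairs of peaks measured 250 and 175 nt around exons 3 and 4 (scores 12.7 and 13.04) and 150 and 50 nt around exons 1 and 2 (scores 11.2 and 11.7). Only 101 of the 250 nt and 47 of the 175 nt lay in the coding transcript, and the rest lay outside it, in part in a transcript of the gene annotated as non-coding. Around exons 1 and 2, 136 of the 150 nt and 36 of the 50 nt lay in the coding transcript.

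A Dox peak overlapped 5 of the 9 DMSO peaks of Igf2bp1, 2 of 4 in Ythdf3 and 1 of 2 in Igf2bp3. Over the whole list, 57% of DMSO peaks were overlapped. In Igf2bp1, 4 DMSO peaks had no Dox counterpart. A peak of 75 nt in exons 5 and 6, with 71 nt in the coding transcript, scored 17.2 (percentile 94.0). Another of 150 nt in exons 12 and 13 scored 13.4 (percentile 80.3). The others were 50 nt (score 10.2) and 25 nt (score 10.1) in the 3′UTR. The 50-nt peak and the stop codon peak overlapped the microRNA gene Mir3063, which lies in the 3′UTR. Of 35 GGAC in the mRNA, 7 lay under DMSO peaks and 6 under Dox peaks. The seventh was in the peak of exons 12 and 13, at codon 458, and the same codon of Igf2bp3 holds GGAC without a peak in either list. The best-scoring peak is shown by 300 of its coding bases (chr11:95968891-95973054, 4 exons), followed by the peak of exons 12 and 13 (chr11:95966707-95967622, 2 exons).
Igf2bp1, codons 270 to 370: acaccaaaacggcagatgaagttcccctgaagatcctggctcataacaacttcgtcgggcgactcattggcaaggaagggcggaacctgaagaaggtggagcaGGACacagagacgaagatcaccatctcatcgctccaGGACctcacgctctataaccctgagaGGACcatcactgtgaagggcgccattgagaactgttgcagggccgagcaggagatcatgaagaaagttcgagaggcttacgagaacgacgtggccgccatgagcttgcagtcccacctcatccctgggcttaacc
Igf2bp1, codons 441 to 491: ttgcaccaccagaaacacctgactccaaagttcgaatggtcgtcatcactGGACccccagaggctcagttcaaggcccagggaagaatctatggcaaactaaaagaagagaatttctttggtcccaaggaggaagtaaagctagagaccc

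Igf2bp2 (ENSMUSG00000033581, chr16:22059009-22163299, minus strand) carried all of its peaks in the 3′UTR. Its coding sequence of 1776 nt holds 9 GGAC and had no base under a peak in either list. The peak nearer to the stop codon, chr16:22060609-22060733, measured 125 nt with a score of 14.9 (percentile 88.8) in the DMSO list. In the Dox list it was divided into peaks of 75 nt (score 11.8) and 25 nt (score 10.6). The other peak had its middle 1074 nt downstream of the stop codon in both lists, and it measured 225 nt (score 13.1) in the DMSO list and 175 nt (score 12.2) in the Dox list. The best-scoring peak held no GGAC, so that its first 29 bases are shown with DRACH in capitals (chr16:22060705-22060733).
Igf2bp2, 3′UTR: AGACCAAACAgccagcagatcgggagcaa

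Igf2bp3 (ENSMUSG00000029814, chr6:49085223-49214957, minus strand) had 2 DMSO peaks and 1 Dox peak. The peak over the stop codon measured 250 nt with a score of 11.9 (percentile 56.2) in the DMSO list. In the Dox list it measured 200 nt with a score of 17.3 (percentile 95.5). The other DMSO peak was the 75 nt of exons 8 and 9 whose sequence is given above with its paralogs, and it had a score of 12.9 (percentile 75.4). The aligned codons of Igf2bp1 lay within its best-scoring peak. The proteins of Igf2bp1 and Igf2bp3 were 75.3% identical over aligned residues, against 69.0% for Igf2bp1 and Igf2bp2 and 67.7% for Igf2bp2 and Igf2bp3. All 50 aligned codons under Igf2bp3 DMSO peaks were also under Igf2bp1 DMSO peaks, as were all 24 in the Dox list, and 55.5% and 30.8% of all aligned codons of Igf2bp1 were under peaks. The coding part of the best-scoring peak follows (chr6:49087342-49087422).
Igf2bp3, codons 554 to 579 and the stop codon: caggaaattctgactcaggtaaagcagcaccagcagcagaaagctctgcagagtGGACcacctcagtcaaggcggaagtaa

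Set side by side, the Dox peaks of the readers were contained in the DMSO peaks. A DMSO peak overlapped each of the 23 Dox peaks (100%, 95% interval 85.7% to 100% by Wilson's method), against 92.7% of all Dox peaks. Every base under a Dox peak in these genes was also under a DMSO peak, whereas over the whole lists 93.0% of Dox peak bases were. In the other direction, 20 of 29 DMSO peaks (69.0%, 50.8% to 82.7%) were overlapped by a Dox peak, against 57% of all DMSO peaks. The intervals cover counting error only, and peaks of a gene are not independent. The value over all peaks lay inside the readers' interval for both shares.

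Where 1 DMSO peak met 1 Dox peak, which held for 17 pairs, the DMSO peak was longer in 13, the lengths were equal in 4, and the Dox peak was longer in 0. The lack of longer Dox peaks follows from all Dox peak bases of the readers lying under DMSO peaks. Over the whole lists, the DMSO peak was longer in 68.9% of 8891 such pairs, equal in 20.2% and shorter in 10.9%. The DMSO peak had the higher percentile in 10 of the 17 pairs and the Dox peak in 7. These percentiles are ranks within lists of different size, so they are given as a description. A DMSO peak was met by more than 1 Dox peak at 3 sites, in Ythdf2, Ythdf3 and Igf2bp2, or 10.3% of the 29, against 6.86% of all DMSO peaks. In total, the readers had 1.30 times as many exon bases under DMSO peaks as under Dox peaks (8050 and 6175), and the ratio over the whole lists was 1.47. Of the readers' DMSO peak bases, 76.7% were also under a Dox peak, against 63.3% over the whole lists. By gene, this share ran from 61.5% in Igf2bp3 and 61.8% in Ythdf3 to 86.2% in Ythdf2 and 98.3% in Ythdf1.

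**Figure D4:**
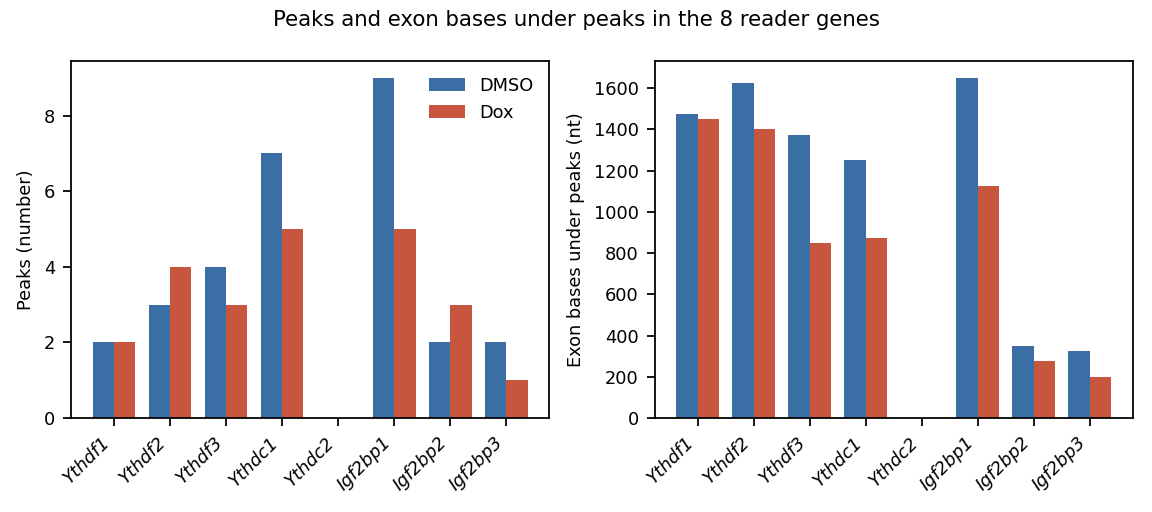
Number of peaks (left) and exon bases under peaks in nt (right) for each reader gene in the DMSO list (blue) and the Dox list (red), with 1 list per treatment and no error bars. Bases under peaks were fewer in the Dox list in each of the 7 genes with peaks. Examples are Ythdf1 (1475 and 1450 nt), Ythdf3 (1375 and 850 nt) and Igf2bp1 (1650 and 1125 nt). Ythdf2 and Igf2bp2 nevertheless had more Dox than DMSO peaks. As all Dox peak bases of the readers lay under DMSO peaks, no reader could have more Dox bases. The share of all genes with fewer Dox bases is not given here. Over the whole lists, DMSO peaks held 1.47 times the bases of Dox peaks, against 1.30 times in the readers.

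The 9 peaks found in the DMSO list alone were in Igf2bp1 (4), Ythdf3 (2), Ythdc1 (2) and Igf2bp3 (1). They were short, with a median of 75 nt (25 to 150 nt), against 262.5 nt (100 to 1100 nt) for the 20 that were overlapped. Over the whole DMSO list the medians were 50 and 200 nt. Their scores ran from 10.1 to 17.2 with a median of 11.4, and those of the overlapped peaks from 10.996 to 26.1 with a median of 12.6. Of the 5 DMSO peaks above the 90th percentile, 3 were overlapped by a Dox peak, against 87.7% of all DMSO peaks above that percentile. The exceptions were the 75-nt peaks in exon 11 of Ythdc1 and in exons 5 and 6 of Igf2bp1. No interval was computed for these 5 peaks, so they show no difference between the readers and the whole list.

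**Figure D5:**
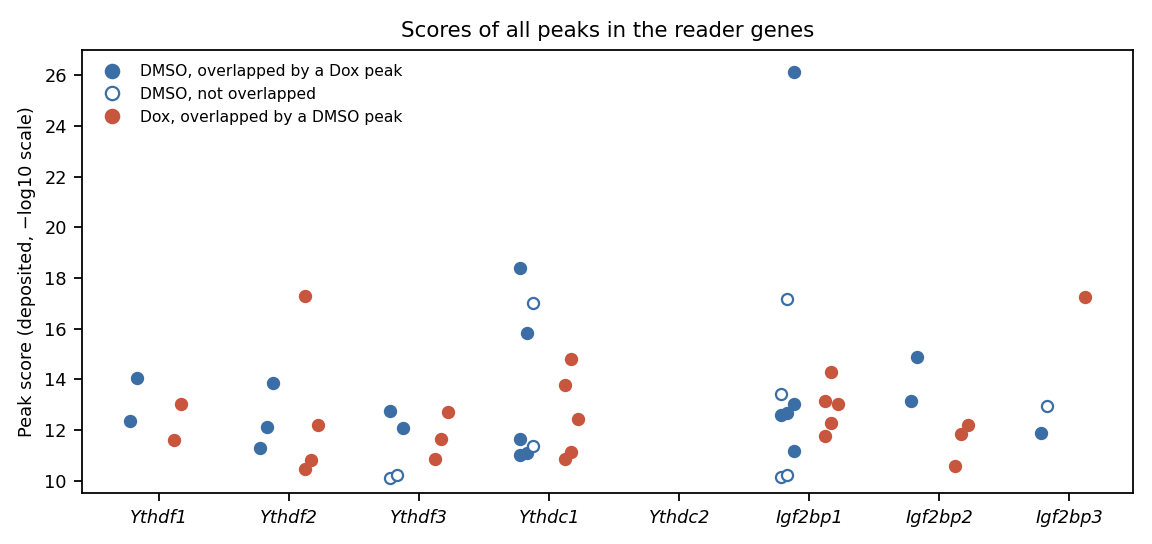
Score of each of the 29 DMSO peaks (blue) and 23 Dox peaks (red) in the reader genes (y axis, deposited score on the −log10 scale, not starting at 0), with 1 point per peak. Open points are the 9 DMSO peaks that no Dox peak overlapped, and the highest point is the Igf2bp1 peak of exons 7 to 10 at 26.1.

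As to position, 17 of 27 DMSO peaks that could be placed on the transcript with the longest coding sequence had their middle base in the coding sequence (63.0%, 44.2% to 78.5%). In the Dox list it was 15 of 21 (71.4%, 50% to 86.2%). All DMSO peaks gave 72.2% and all Dox peaks 71.3%. Within 200 nt of the stop codon lay 7 of 27 DMSO peaks (25.9%, 13.2% to 44.7%) and 8 of 21 Dox peaks (38.1%, 20.8% to 59.1%), against 22.9% and 25.1% of all peaks. The stop codon itself was under a peak in 5 of the 7 genes in the DMSO list (Ythdf2, Ythdf3, Ythdc1, Igf2bp1 and Igf2bp3) and in 3 in the Dox list (Ythdc1, Igf2bp1 and Igf2bp3). Of all genes with a peak in the list, 41.7% and 38.5% had the stop codon under one. Exons of 400 nt or more held 83.4% of the readers' DMSO peak bases and 89.3% of their Dox peak bases, against 73.6% and 78.9% for all peaks. Such exons made up 70.1% of the readers' transcripts. The shares by family were 99.7% and 100% in the Ythdf genes, 57.9% and 69.6% in Ythdc1, and 62.6% and 72.0% in the Igf2bp genes.

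GGAC was present in 18 of 29 DMSO peaks (62.1%, 44.0% to 77.3%) and 14 of 23 Dox peaks (60.9%, 40.8% to 77.8%), against 54% and 55.9% of all peaks. At the level of sites, 44 of the 119 GGAC in the mRNAs of the 7 genes with peaks (37.0%) lay under DMSO peaks, which covered 24.9% of the bases of these mRNAs. Dox peaks held 36 of them (30.3%) in 19.0% of the bases. Over all genes with a peak, 22.1% of GGAC lay in the 15.0% of bases under DMSO peaks and 19.7% in the 12.7% under Dox peaks. No GGAC of the readers was under a Dox peak without being under a DMSO peak. This follows from every Dox peak base in these genes also being under a DMSO peak, and it is no separate result.

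The other genes of the m6A pathway were looked up in the same lists, in which DMSO peaks were found in 27.7% and Dox peaks in 22.3% of all protein-coding genes, and which held 1.45 times as many DMSO as Dox peaks. Of 11 genes of the writers and their complex, 8 carried DMSO peaks and 8 carried Dox peaks, 7 of them both kinds, with 33 and 30 peaks. Zc3h13 had most (11 and 12). Mettl5 had a DMSO peak alone and Mettl14 a Dox peak alone. Both erasers had peaks in both lists, Fto 4 and 1 and Alkbh5 3 and 3. Of 11 other RNA-binding proteins reported to read m6A or the structures it opens, 9 and 8 had peaks, 37 and 21 in number. Fmr1 (5 peaks) and Elavl1 (3 peaks) had them in the DMSO list alone and Rbmx (1 peak) in the Dox list alone. Hnrnpa2b1 had most DMSO peaks of that list (9, with 3 Dox peaks) and Prrc2a most Dox peaks (8 in each). Of 13 decay effectors that act with the YTH readers, 11 and 10 had peaks, 36 and 27 in number. Cnot1, the scaffold of the CCR4-NOT complex, had most (8 and 5), and Cnot8 had a DMSO peak alone. The shares of all genes with peaks in 1 list alone or in both are not given here. Genes named for peaks in 1 list alone are therefore a description, without a comparison.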

How the data were processed

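Peak lists of the DMSO and Dox treatments were analysed as the authors deposited them, 1 per treatment. The submitters' processing notes and the methods name fastp 0.19.4 for read filtering, HISAT2 2.2.1 for alignment to mm10 and exomePeak2 for peak calling. Settings of the caller and how replicates were combined are not given in the sources used here. The value of each peak in the deposited lists was taken as the authors' −log10 p-value (score), from its range alone, and whether it was adjusted is not stated. No read counts were used, so depth is unknown.

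GENCODE M21 (GRCm38) was used, and 99.8% of inner block edges of spliced peaks in each list lay at exon edges, a check of the build. Positions refer to the transcript with the longest coding sequence of a gene. Peaks overlapped with 1 shared base or more on the same strand. Proteins were translated from the annotated coding sequences and aligned globally (BLOSUM62, gap opening 11, extension 1). GGAC and DRACH were searched on the mRNA strand of the GRCm38 RefSeq genome sequence. blastn 2.17.0 was used to find near-identical loci (98% identity over 90% of a peak). Shares have Wilson 95% intervals. Steps were tested on simulated peaks. Python 3.11.15, numpy 2.4.6, pysam 0.24.0, biopython 1.88 and matplotlib 3.10.9 were used.

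All 8 readers and all of their peaks were described. From the pathway lists, genes with a peak in 1 list alone and those with most peaks were named. Sequences shown were the coding part of each reader's best-scoring peak (at most 300 bases), or at most 30 bases where it was in a 3′UTR. The sequence of 1 such peak is not reported here. The aligned stretches and the Igf2bp1 peak of exons 12 and 13 were added after the values were seen. The members and lists were chosen with earlier results of these data known. Alternatives concerned the score, list sizes, transcript, strand, overlap, window, motif, exon length and near-identical loci.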

Additional observations from a re-analysis of the deposited data

How the results depend on the processing

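Fixed alternatives gave 57 values for 15 results, of which 48 stayed within 1.5 times (counts) or within the 95% interval (shares and ratio) of the reported value. For the ratio of bases and the shares of bases in long exons, this interval was computed from peak numbers, not bases. It was wide, with 0.76 to 2.24 for the ratio and 65.5% to 92.4% for the DMSO share. The 7 genes with peaks in each list were found under all 6 alternatives run on them. Some of these could not change a count. Equal list sizes trimmed the DMSO list alone, so the Dox genes and peaks were fixed. No DMSO peak of the readers had a near-identical locus, so leaving such loci out could not change the DMSO counts. These fixed values are among the 48. Requiring a score at or above the median of the DMSO list left 20 DMSO and 16 Dox peaks, and equal list sizes left 23 and 23. With equal list sizes, the overlapped shares were 78.3% (DMSO) and 91.3% (Dox), and the ratio of bases was 1.23. The 9 values that moved were the following. With an overlap of 50% of both peaks, 73.9% of Dox peaks were overlapped. Within 100 nt of the stop codon lay 11.1% of DMSO peaks. Counted by bases, 82.5% of the DMSO peaks were coding. DRACH was found in 82.8% of DMSO and 82.6% of Dox peaks, GGACT in 17.2% and 21.7%, and GGAC in 90% and 81.25% at the higher score threshold. Values over all peaks at these settings are not given here, so these shares show no difference between the readers and the whole lists. No paired analysis was possible because there was 1 list for each treatment, and for the same reason no replicate could be left out. Read depth was not analysed here, so what it limits is unknown.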
